A study of Mus musculus with 9 samples.

Results

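The comparison asked which hepatic miRNAs differed between mice in which thioacetamide (TAA) had been withdrawn and mice examined at the end of the TAA course. TAA is a compound that injures the liver when it is given repeatedly and leads to fibrosis. The comparison used all 6 libraries of the TAA group (n = 3) and the recovery group (n = 3) out of the 9 libraries of the series. All mice were male C57BL/6 mice, and both groups received intraperitoneal TAA for 8 weeks. The TAA group was killed within days of the last injection, and the recovery group was left untreated for 8 further weeks. Recovery mice were therefore older at sampling, and withdrawal cannot be told apart from the time that had passed. The TAA livers were also sampled soon after a dose, so a response to that dose and fibrosis cannot be told apart either. Control mice (n = 3) were injected with saline over the same 8 weeks, and their values are given for reference only. Each library came from whole liver, so fewer cells of a type and less miRNA per cell cannot be told apart. The study took the 3 libraries of a group from separate mice.

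A mature miRNA is a short RNA that is cut from a hairpin precursor and guides Argonaute proteins to mRNAs, mainly through bases 2 to 8 of its sequence, the seed. Several miRNAs are made predominantly by 1 cell lineage. miR-122 and miR-192 are abundant in hepatocytes, the miR-200 family is an epithelial family that in the liver is found mainly in bile duct cells, miR-199a and miR-214 are expressed in stellate cells and fibroblasts, miR-126 in endothelium, miR-223 and miR-142 in blood leukocytes and miR-451a in red cells. Stellate cells become collagen-producing myofibroblasts in injured liver, and proliferating bile ductules accompany the scar. The rows were therefore described by class of origin, by family, by shared seed and by genomic cluster.

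The miRNAs on which the comparison turned are shown with their mature sequences from RefSeq, 5′ to 3′, with the seed in capitals. The first set is given because 3 of its members share a seed and the other pair shares a second one, and all were lower in the recovery group.
mmu-miR-200b-3p: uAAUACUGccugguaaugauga
mmu-miR-200c-3p: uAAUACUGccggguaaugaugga
mmu-miR-429-3p: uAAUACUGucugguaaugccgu
mmu-miR-200a-3p: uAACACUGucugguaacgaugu
mmu-miR-141-3p: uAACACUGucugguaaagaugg

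In the GRCm38 build, the hairpins of miR-200b, miR-200a and miR-429 lie at chr4:156053905-156055750 on the minus strand, within introns of Ttll10 on the same strand, and those of miR-200c and miR-141 at chr6:124717914-124718390 on the minus strand, in introns of the non-coding gene Gm15884. A further epithelial cluster, miR-182, miR-96 and miR-183, lies at chr6:30165918-30169737 on the minus strand outside annotated genes, and its members have different seeds.
mmu-miR-182-5p: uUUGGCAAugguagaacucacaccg
mmu-miR-96-5p: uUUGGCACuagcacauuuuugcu
mmu-miR-183-5p: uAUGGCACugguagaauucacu

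The mesenchymal set is shown because all its members were down-regulated in the recovery group, and 3 of the 4 can come from 1 locus. miR-199a and miR-214 lie at chr1:162217814-162223477 on the plus strand within exons of Dnm3os, an antisense transcript of Dnm3, and miR-199a has a second hairpin at chr9:21496495-21496564 within an intron of Dnm2 on the opposite strand. The 2 hairpins of miR-218 lie in introns of Slit2 and Slit3.
mmu-miR-199a-5p: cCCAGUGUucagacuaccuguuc
mmu-miR-199a-3p: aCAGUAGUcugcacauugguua
mmu-miR-214-3p: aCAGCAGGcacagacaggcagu
mmu-miR-218-5p: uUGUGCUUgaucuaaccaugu

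The following pairs are shown because each pair shares its seed, while the ratio of its 2 members within a library did not overlap between the groups.
mmu-let-7i-5p: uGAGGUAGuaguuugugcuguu
mmu-let-7g-5p: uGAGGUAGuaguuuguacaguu
mmu-miR-146b-5p: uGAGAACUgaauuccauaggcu
mmu-miR-146a-5p: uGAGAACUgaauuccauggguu
mmu-miR-193b-3p: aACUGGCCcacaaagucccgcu
mmu-miR-193a-3p: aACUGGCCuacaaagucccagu
mmu-miR-29c-3p: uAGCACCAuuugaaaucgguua
mmu-miR-29a-3p: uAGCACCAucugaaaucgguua

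The last set holds rows that were up-regulated in the recovery group on the TMM scale and had different seeds. miR-592 lies at chr6:27936655-27936750 within the glutamate receptor gene Grm8, miR-192 at chr19:6264844-6264932 outside annotated genes, and miR-1843a at chr12:80391613-80391677 within the small RNA gene Scarna3b in an intron of Dcaf5.
mmu-miR-592-5p: aUUGUGUCaauaugcgaugaugu
mmu-miR-192-5p: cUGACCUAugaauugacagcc
mmu-miR-1843a-3p: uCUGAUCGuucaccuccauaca

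Values of single libraries are given in the order of replicates 1 to 3. The total count was between 9071847 and 11320110 in the TAA libraries and between 12211930 and 12462838 in the recovery libraries. A few rows took most of the counts, and their shares differed between the groups. mmu-miR-21a-5p made up 35.0%, 37.9% and 32.3% of the 3 TAA libraries and 18.2%, 22.6% and 22.3% of the 3 recovery libraries. mmu-miR-122-5p made up 10.6%, 11.4% and 11.97% of the TAA libraries and 24.1%, 17.0% and 18.02% of the recovery libraries. The row mmu-miR-122b-3p held almost the same count, 0.0114% fewer over the 9 libraries, so the miR-122 reads stood in each library total 2 times and cannot be assigned to either row. All rows outside the 5 most abundant ones held 28.7% ± 3.31 (SD, n = 3) of the TAA libraries and 21.3% ± 2.02 of the recovery libraries. TAA replicate 3 stood apart, since it contained striated muscle miRNAs that the other libraries had at low levels or not at all. Results that rest on it are given with and without it.

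**Figure D1:**
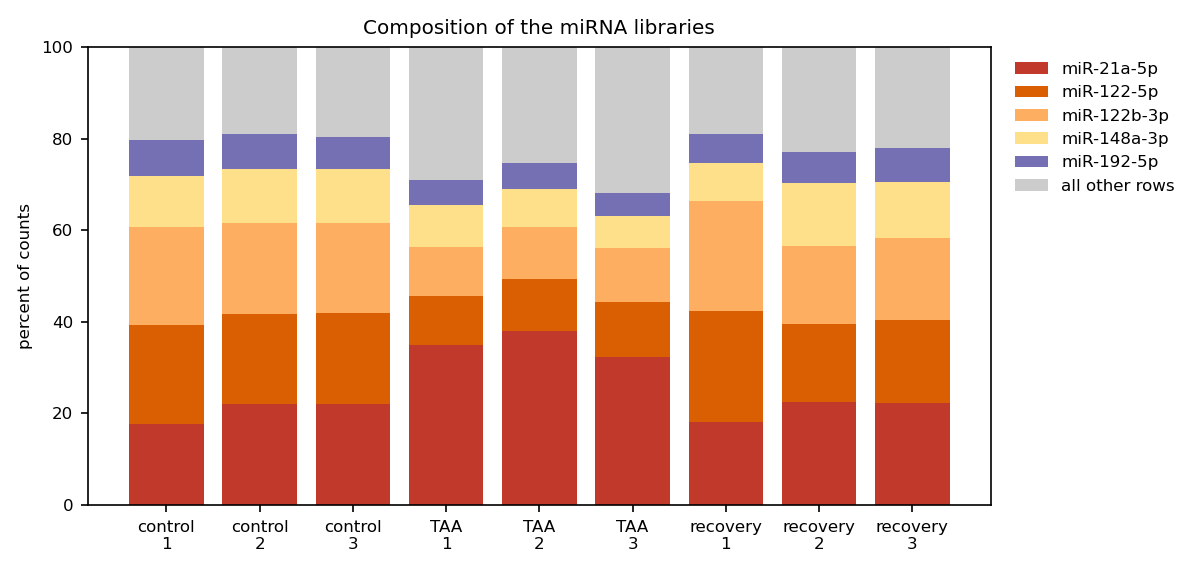
Percent of the counts of each of the 9 libraries (bars, one per sample) held by the 5 most abundant rows and by all other rows. miR-21a-5p held 32.3% to 37.9% of the TAA libraries and 18.2% to 22.6% of the recovery libraries, and miR-122-5p held 10.6% to 11.97% and 17.0% to 24.1%.

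Because the shares of the dominant rows differed, each row was tested on 2 scales. Fold changes on the library-total scale compare counts per 1000000 counts of the library (CPM). Fold changes on the TMM scale compare counts after scaling by TMM factors, which place the bulk of the rows near no change. The factors were 1.31 to 1.39 in the TAA libraries and 0.678 to 0.778 in the recovery libraries, and this moved every log2 fold change by a nearly constant amount, with a median of -0.86 from the TMM to the library-total scale. A DEM (differentially expressed miRNA) had an FDR below 0.05 in edgeR's quasi-likelihood test and a fold change of at least 2. Fold changes in parentheses are log2 values of the TMM fit, or of the scale given with them. Of 440 tested rows, 109 (24.8%) were DEMs on the TMM scale, of which 45 (10.2%) were higher and 64 (14.5%) lower after withdrawal. By library totals 207 rows (47.0%) were DEMs, with 4 (0.909%) up-regulated against 203 (46.1%) down-regulated. Over all tested rows the median fold change was, as a log2, -0.12 on the TMM scale and -0.98 on the library-total scale.

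All 64 rows down-regulated on the TMM scale were also down-regulated on the library-total scale. The shift from the TMM to the library-total scale was between -0.89 and -0.79 for every row. Each of the 64 therefore met the fold threshold there in advance, and this count is no separate support. Only 4 rows were up-regulated on both, namely mmu-miR-1843a-3p, mmu-miR-455-3p, mmu-miR-29c-3p and mmu-miR-592-5p. The groups did not overlap in 235 rows (53.4%) on the TMM scale and in 307 rows (69.8%) on the library-total scale. On the latter scale 280 rows (63.6%) were lower in every recovery library than in every TAA library. A further 41 rows were up-regulated on the TMM scale alone, 139 were down-regulated on the library-total scale alone, and no row was called in opposite directions. The shift between the scales is too small to allow opposite calls. When each library was left out in turn, 38 of the 64 down-regulated and 33 of the 45 up-regulated rows of the TMM scale were called in all 6 fits. Without TAA replicate 3, 107 DEMs (46 up-regulated, 61 down-regulated) were found on the TMM scale, of which 93 were among the 109. Of the 4 rows up-regulated on both scales, mmu-miR-592-5p alone was called in all 6 fits on the library-total scale. The call was lost there without TAA replicate 1 or recovery replicate 2 for mmu-miR-29c-3p, without TAA replicate 2 or recovery replicate 1 for mmu-miR-455-3p, and without any of TAA replicates 1 and 3 and recovery replicates 1 and 3 for mmu-miR-1843a-3p. The double count of miR-122 bears on the library-total scale. With near-identical rows merged, 7 rows were up-regulated there, and without both miR-122 rows 14 were up-regulated, while the down-regulated share of the rows tested was 39.5% and 30.4%.

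The biliary epithelial class was lower after withdrawal on both scales. All 10 tested members of the 15 listed were down-regulated on the TMM scale and on the library-total scale, against 14.5% and 46.1% of all tested rows. Their median log2 fold change was -1.86 (range -2.26 to -1.298) on the TMM scale and -2.71 on the library-total scale. Together the class held 0.791% ± 0.171 (SD, n = 3) of all counts in TAA livers, 0.137% ± 0.0213 in recovery livers and 0.0711% ± 0.00990 in control livers. The summed level was 6689.6 to 9857 CPM in the TAA libraries and 1124 to 1517 CPM in the recovery libraries, with no overlap. Without TAA replicate 1 the median on the TMM scale was -1.51.

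mmu-miR-200b-3p, which represses the Zeb transcription factors that drive epithelial-mesenchymal transition, was measured at 4577, 3137 and 3253 CPM in the 3 TAA libraries and at 445, 583 and 573 CPM in the 3 recovery libraries. Every recovery library was thus far below every TAA library, while the control libraries were lower still at 255 ± 34.5 CPM (SD, n = 3). The log2 fold change was -1.92 ± 0.20 (SE, FDR = 0.00048) on the TMM scale and -2.78 ± 0.21 (SE, FDR = 0.00013) on the library-total scale. The other mature arm of the same hairpin, mmu-miR-200b-5p, had 12.5, 14.1 and 11.3 CPM in the TAA and 1.56, 1.55 and 1.20 CPM in the recovery libraries. It had the lowest TMM fold change of the class. mmu-miR-200a-3p, with the second seed of the family, fell from 2977, 1941 and 2326 CPM to 448, 595 and 585 CPM (log2 fold change -1.298, FDR = 0.0021 on the TMM scale). Its other arm mmu-miR-200a-5p fell from 214.3, 140.2 and 139 CPM to 16.2, 24.9 and 25.4 CPM (-2.05, FDR = 0.00074). mmu-miR-429-3p, from the same cluster, fell from 282, 226 and 231 CPM to 28.9, 38.1 and 35.4 CPM (-1.99, FDR = 0.00028). All 5 tested arms of the chromosome 4 cluster were down-regulated, with no overlap between the groups.

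The chromosome 6 pair of the family was less abundant and more scattered. mmu-miR-200c-3p had 82.9, 123 and 177 CPM in the TAA and 26.0, 34.6 and 19.9 CPM in the recovery libraries (-1.37, FDR = 0.0093), and mmu-miR-141-3p had 9.28, 12.7 and 20.9 CPM and 2.29, 4.56 and 2.25 CPM (-1.36, FDR = 0.027). For both, TAA replicate 3 was the highest library. The TMM call of mmu-miR-141-3p was lost without TAA replicate 3, recovery replicate 1 or recovery replicate 3, so that 9 of the 10 rows were called without TAA replicate 3. In the cluster of miR-182, miR-96 and miR-183, which also serves sensory cells, the order of the libraries differed. mmu-miR-182-5p had 1061, 671 and 626 CPM in the TAA and 95.1, 147.9 and 144.4 CPM in the recovery libraries (-1.76, FDR = 0.0021). mmu-miR-183-5p had 506, 345 and 315 and 50.3, 71.1 and 61.7 CPM (-1.82, FDR = 0.00094), and mmu-miR-96-5p had 133.4, 77.1 and 74.6 and 10.6, 16.3 and 15.3 CPM (-1.91, FDR = 0.0021). TAA replicate 1 was the highest library for all 3, and recovery replicate 1 the lowest.

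The stellate cell and myofibroblast class split into 2 parts. Of 10 tested members of the 12 listed, 6 were down-regulated on the TMM scale and 7 on the library-total scale, against 14.5% and 46.1% of all tested rows, and none was up-regulated. Without TAA replicate 3 these counts were 6 and 6. The median log2 fold change was -1.26 on the TMM scale and -2.12 on the library-total scale. The 6 rows were both arms of miR-199a and miR-214, mmu-miR-199b-5p and mmu-miR-218-5p. mmu-miR-199a-3p fell from 1040.2, 872 and 1429 CPM in the 3 TAA libraries to 254, 250.1 and 274 CPM in the 3 recovery libraries, with log2 fold changes of -1.23 ± 0.20 (SE, FDR = 0.0024) on the TMM scale and -2.10 ± 0.21 (SE, FDR = 0.00024) on the library-total scale. mmu-miR-199a-5p fell from 1172, 739 and 949.8 to 187, 239 and 222 CPM (-1.28, FDR = 0.0024). The recovery libraries lay within a narrow range, and the TAA libraries were far above them. mmu-miR-199b-5p, made from a separate hairpin, fell from 76.7, 34.9 and 52.6 to 7.53, 10.1 and 7.62 CPM (-1.84, FDR = 0.0037). mmu-miR-214-3p fell from 97.3, 107 and 108 to 15.4, 19.4 and 19.98 CPM (-1.64, FDR = 0.00028) and mmu-miR-214-5p from 38.3, 28.4 and 40.1 to 4.91, 8.07 and 7.30 CPM (-1.54, FDR = 0.0024). The 2 arms thus fell by a similar amount. In the control group mmu-miR-214-3p was at 11.9 ± 2.17 CPM (SD, n = 3) and mmu-miR-199a-3p at 162 ± 15.8 CPM. mmu-miR-218-5p, whose hairpins lie in genes of the Slit axon guidance ligands, had the lowest fold change of the class, from 619, 384 and 376 to 6.14, 13.5 and 15.6 CPM (-4.46, FDR = 0.00028).

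The second part was miR-143 and miR-145a, which are abundant in smooth muscle and myofibroblasts. mmu-miR-143-3p, the most abundant row of the class, had 47557, 27524 and 61391 CPM in the TAA and 16161, 23165 and 30674 CPM in the recovery libraries. The groups overlapped, because recovery replicate 3 was above TAA replicate 2. The log2 fold change was -0.11 ± 0.29 (SE, FDR = 0.78) on the TMM scale and -0.96 ± 0.32 (SE, FDR = 0.030) on the library-total scale. mmu-miR-145a-5p had 309, 208.4 and 313 CPM and 138, 198 and 169 CPM, with 0.14 on the TMM scale (FDR = 0.61) and -0.72 on the library-total scale (FDR = 0.022). The printed CPM of the groups did not overlap, and neither value was a DEM. mmu-miR-143-5p was a DEM on the library-total scale only (-1.13, FDR = 0.0044), and not without TAA replicate 3. On the scale-free log2 ratio of mmu-miR-199a-3p to mmu-miR-143-3p within a library, the TAA libraries were at -5.51, -4.98 and -5.42 and the recovery libraries at -5.99, -6.53 and -6.81. The 2 groups did not overlap in this ratio, so that miR-199a was lower relative to miR-143 after withdrawal in every library.

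The hepatocyte class was the only class with several up-regulated members on the TMM scale. Of 11 tested members of the 13 listed, 8 were up-regulated and none down-regulated, against 10.2% of all tested rows up-regulated. By library totals none was up-regulated and 1 was down-regulated. The median log2 fold change was 1.12 on the TMM scale and 0.28 on the library-total scale, where 4 of the 11 rows were higher in every recovery library than in every TAA library, against 6.14% of all tested rows. The class, counted without the duplicate row of miR-122, held 25.2% ± 0.815 (SD, n = 3) of all counts in TAA livers, 38.4% ± 0.574 in recovery livers and 39.8% ± 0.979 in control livers.

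mmu-miR-122-5p, the liver-specific miRNA that sustains lipid metabolism, had 106329, 114337 and 119746 CPM in the 3 TAA libraries and 241363, 170123 and 180220.0 CPM in the 3 recovery libraries. Every recovery library was above every TAA library, with log2 fold changes of 1.68 ± 0.19 (SE, FDR = 0.00054) on the TMM scale and 0.80 ± 0.15 (SE, FDR = 0.0026) on the library-total scale. The fold change on the library-total scale was below 2, so the row was a DEM on the TMM scale only. The other arm, mmu-miR-122-3p, had a log2 fold change of 0.99 on the TMM scale and was no DEM on either scale. mmu-miR-192-5p, which shares a p53-responsive cluster with miR-194, had 54137, 57933 and 51282 CPM and 62659, 68109.9 and 74701 CPM (1.20, FDR = 0.00028 on the TMM scale and 0.33, FDR = 0.033 on the library-total scale). mmu-miR-194-5p had 2638, 3492 and 3428 and 3679.5, 3996 and 3660.5 CPM (1.12, FDR = 0.00094 on the TMM scale and 0.25, FDR = 0.18 on the library-total scale). The minor arms of the same hairpins, mmu-miR-192-3p and mmu-miR-194-2-3p, had log2 fold changes of 1.32 and 1.48 on the TMM scale. All 4 tested arms of the cluster on chromosome 19 were up-regulated on that scale and none on the library-total scale.

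mmu-miR-148a-3p, which is abundant in hepatocytes and targets a DNA methyltransferase, had 91931, 81790.2 and 67945 CPM in the TAA and 81949, 136454 and 122500.0 CPM in the recovery libraries. Recovery replicate 1 lay within the TAA range and the other 2 recovery libraries above it, and the log2 fold change was 1.35 ± 0.18 (SE, FDR = 0.0014) on the TMM scale and 0.50 ± 0.20 (SE, FDR = 0.060) on the library-total scale. mmu-miR-215-5p, a relative of miR-192, was up-regulated on the TMM scale (1.12, FDR = 0.029), but not without TAA replicate 2 or 3 or recovery replicate 2 or 3. mmu-miR-148a-5p was up-regulated (1.06, FDR = 0.0037), but not without TAA replicate 3. The 2 arms of miR-802, a regulator of glucose metabolism, were no DEMs on the TMM scale. mmu-miR-802-3p had 8.92, 9.92 and 8.18 CPM and 3.11, 4.97 and 3.85 CPM (-0.32, FDR = 0.33 on the TMM scale and -1.18, FDR = 0.0056 on the library-total scale), and mmu-miR-802-5p had 13.8, 13.8 and 13.3 and 8.11, 10.9 and 5.70 CPM (0.15, FDR = 0.71 on the TMM scale and -0.72, FDR = 0.047 on the library-total scale). The 3p arm was a DEM on the library-total scale, and the sign of the 5p arm differed between the scales. Both rows were lower in every recovery library than in every TAA library in CPM, as were 63.6% of all tested rows. Without TAA replicate 3, 12 members passed the filter on low counts and 7 were up-regulated on the TMM scale.

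**Figure D2:**
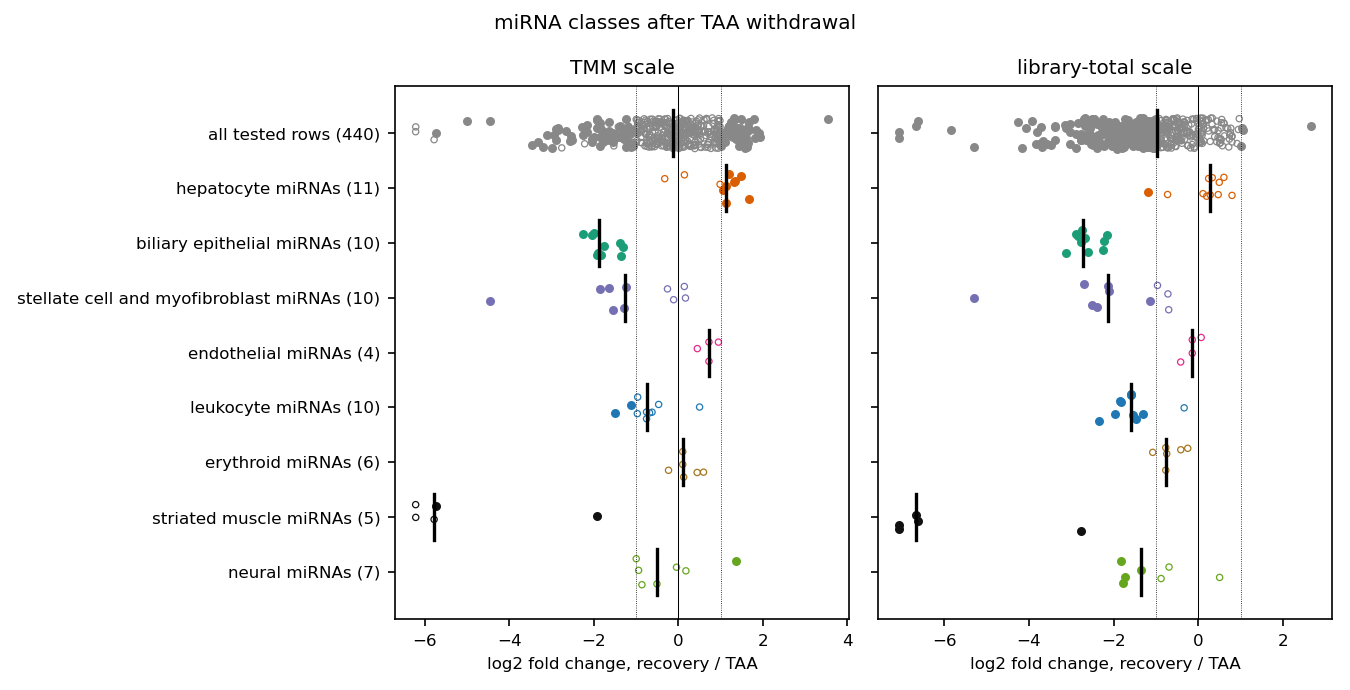
Log2 fold change of recovery over TAA (x axes) for each tested row of 8 classes and for all 440 tested rows, on the TMM scale (left) and the library-total scale (right). Filled points are DEMs, open points are not, black bars are medians, dotted lines mark a fold change of 2, the vertical spread of points is random, and numbers in parentheses are tested rows. The biliary rows lie below -1 on both scales, the hepatocyte median moves from 1.12 to 0.28, and the striated muscle rows near -6 rest on TAA replicate 3.

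The endothelial class held no DEM by edgeR on either scale, although all 4 tested rows were higher at an unadjusted p below 0.05 on the TMM scale and DESeq2 called 1 up-regulated. Their median log2 fold change was 0.73 on the TMM scale and -0.14 on the library-total scale. mmu-miR-126a-3p, which lies within Egfl7 and maintains vascular integrity, had 8019.6, 8535 and 10492 CPM in the TAA and 5772, 7396 and 7111 CPM in the recovery libraries. It was lower in every recovery library by CPM (-0.42, FDR = 0.048), yet higher on the TMM scale (0.45, FDR = 0.026), so its direction depended on the scale. By CPM 63.6% of all tested rows were lower in every recovery library. mmu-miR-126a-5p and mmu-miR-126b-3p differed by 3 counts over the 9 libraries and cannot be told apart. By edgeR 1 row of the class was up-regulated without TAA replicate 3, without recovery replicate 2 or without recovery replicate 3. The abundant miRNAs of other classes were also set against mmu-miR-126a-3p within each library, which needs no scaling. The log2 ratio of mmu-miR-200b-3p to mmu-miR-126a-3p was -0.81, -1.44 and -1.69 in the TAA libraries and -3.70, -3.67 and -3.63 in the recovery libraries, and that of mmu-miR-199a-3p to mmu-miR-126a-3p was -2.95, -3.29 and -2.88 and -4.51, -4.89 and -4.70. Neither ratio overlapped between the groups.

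In the leukocyte class the number of DEMs depended on the scale. Of 10 tested members of the 11 listed, 2 were down-regulated on the TMM scale, against 14.5% of all tested rows, and 9 on the library-total scale, against 46.1%. Without TAA replicate 3 these counts were 3 and 9. The median log2 fold change was -0.75 and -1.59, and 7 rows on the TMM scale were lower in every recovery library than in every TAA library, against 29.8% of all tested rows. The 2 DEMs of the TMM scale were the arms of miR-223, a miRNA of neutrophils and other myeloid cells. mmu-miR-223-3p had 44.3, 45.4 and 56.2 CPM in the TAA and 9.91, 10.8 and 16.4 CPM in the recovery libraries (-1.11, FDR = 0.0067), with 10.1 ± 1.67 CPM (SD, n = 3) in the control group. mmu-miR-223-5p had 26.4, 25.2 and 28.4 and 3.28, 6.44 and 5.94 CPM (-1.501, FDR = 0.0034). The TMM call of mmu-miR-223-3p was lost without recovery replicate 1 or 2. On that scale 1 member of the class was down-regulated without recovery replicate 1, and 3 were without recovery replicate 2.

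Among the lymphocyte-associated members, mmu-miR-150-5p had 62.4, 79.3 and 82.6 CPM in the TAA and 19.2, 24.3 and 19.1 CPM in the recovery libraries (-0.97, FDR = 0.0049 on the TMM scale, just short of a fold change of 2). mmu-miR-155-5p, which is induced in activated lymphocytes and macrophages, had 17.4, 19.2 and 14.7 and 3.85, 6.27 and 4.41 CPM (-0.96, FDR = 0.018). mmu-miR-342-5p and mmu-miR-342-3p (-0.68 and -0.62) were DEMs on the library-total scale only. The rare arm mmu-miR-150-3p, at a mean of 0.67 CPM on the TMM scale, went the other way (0.50) and was no DEM on either scale. The pan-leukocyte mmu-miR-142a-5p, the most abundant member, had 266, 274 and 327 and 72.5, 134 and 142.3 CPM (-0.46, FDR = 0.13 on the TMM scale and -1.31, FDR = 0.0037 on the library-total scale). Recovery replicate 1 was the lowest library for it. The rows mmu-miR-142a-3p and mmu-miR-142b had identical counts and are 1 measurement. Summed over the class, the level was 546 to 622 CPM in the TAA and 135 to 234 CPM in the recovery libraries, and 173 to 189 CPM in the control libraries. The lowest recovery library was thus below the lowest control library.

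The erythroid class had no DEM by edgeR on either scale among its 6 tested members, none had an unadjusted p below 0.05, and DESeq2 called none. The medians were 0.12 and -0.76. mmu-miR-451a, the abundant red cell miRNA, had 507, 297 and 656 CPM in the TAA and 224, 516 and 489 CPM in the recovery libraries, so the groups overlapped. The class median on the TMM scale was 0.63 without TAA replicate 3, which had the highest CPM of the 6 libraries for every member. Without recovery replicate 2, 1 member was down-regulated on the library-total scale.

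The striated muscle class rested on 1 library. mmu-miR-1a-3p had 16.9, 19.0 and 7329 CPM in the 3 TAA libraries and 5.98, 17.5 and 30.9 CPM in the 3 recovery libraries, so the first 2 TAA libraries lay within the recovery range. mmu-miR-133a-3p had 0.707, 0.992 and 249 and 0.409, 1.06 and 0.963 CPM, and mmu-miR-206-3p had 4.42, 0.882 and 103 and 0.328, 0.489 and 0.241 CPM. In all of them TAA replicate 3 stood far above the others. With all libraries, 2 of the 5 tested members were down-regulated on the TMM scale and 5 on the library-total scale, against 14.5% and 46.1% of all tested rows. Without TAA replicate 3, 1 was down-regulated on the TMM scale and 2 on the library-total scale, and the class median went from -5.78 to 0.79 on the TMM scale. The fit could call more of these rows when TAA replicate 1 or 2 was left out, 5 in each case, and 1 when any recovery library was. On the library-total scale 1, 2 and 1 were called without recovery replicates 1, 2 and 3. mmu-miR-206-3p had the lowest TMM fold change among the DEMs that averaged 10 CPM or more and did not overlap (-5.74), and it was not a DEM on that scale without TAA replicate 3 or without any recovery library. The member that was high in all 3 TAA libraries was mmu-miR-499-5p, from an intron of a slow muscle myosin gene, with 6.63, 4.74 and 10.6 CPM in the TAA and 0.737, 1.39 and 1.04 CPM in the recovery libraries (-1.92, FDR = 0.0067). Whether muscle tissue took part in other differences of TAA replicate 3 was not tested.

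Markers of tissues foreign to the liver served as a check of the labelled tissue. Among pancreas miRNAs 1 of 8 listed rows was tested and 3 had no count in the 6 libraries, and the summed level was at most 4.69 CPM. The tested row, mmu-miR-375-3p, had 2.47, 2.76 and 2.84 CPM in the TAA and 1.31, 1.304 and 1.36 CPM in the recovery libraries and was a DEM on the library-total scale only, which was lost without TAA replicate 2, TAA replicate 3 or recovery replicate 2. The gonad list had no tested row. Neural miRNAs summed to 51.0 to 69.6 CPM in the TAA and 18.3 to 28.5 CPM in the recovery libraries, mainly from mmu-miR-129-5p with 37.5, 29.7 and 35.3 and 9.17, 7.58 and 14.4 CPM (-0.86, FDR = 0.038 on the TMM scale). Of 7 tested neural rows, mmu-miR-137-3p was up-regulated on the TMM scale (1.37, FDR = 0.022), though not without recovery replicate 2, and none was down-regulated there unless TAA replicate 2 or recovery replicate 3 was left out, which gave 1. By library totals 4 were down-regulated, against 46.1% of all tested rows, and 3 without TAA replicate 3. The hepatocyte miRNAs summed to at least 242817 CPM in each of the 6 libraries, far above every list of a foreign tissue.

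**Figure D3:**
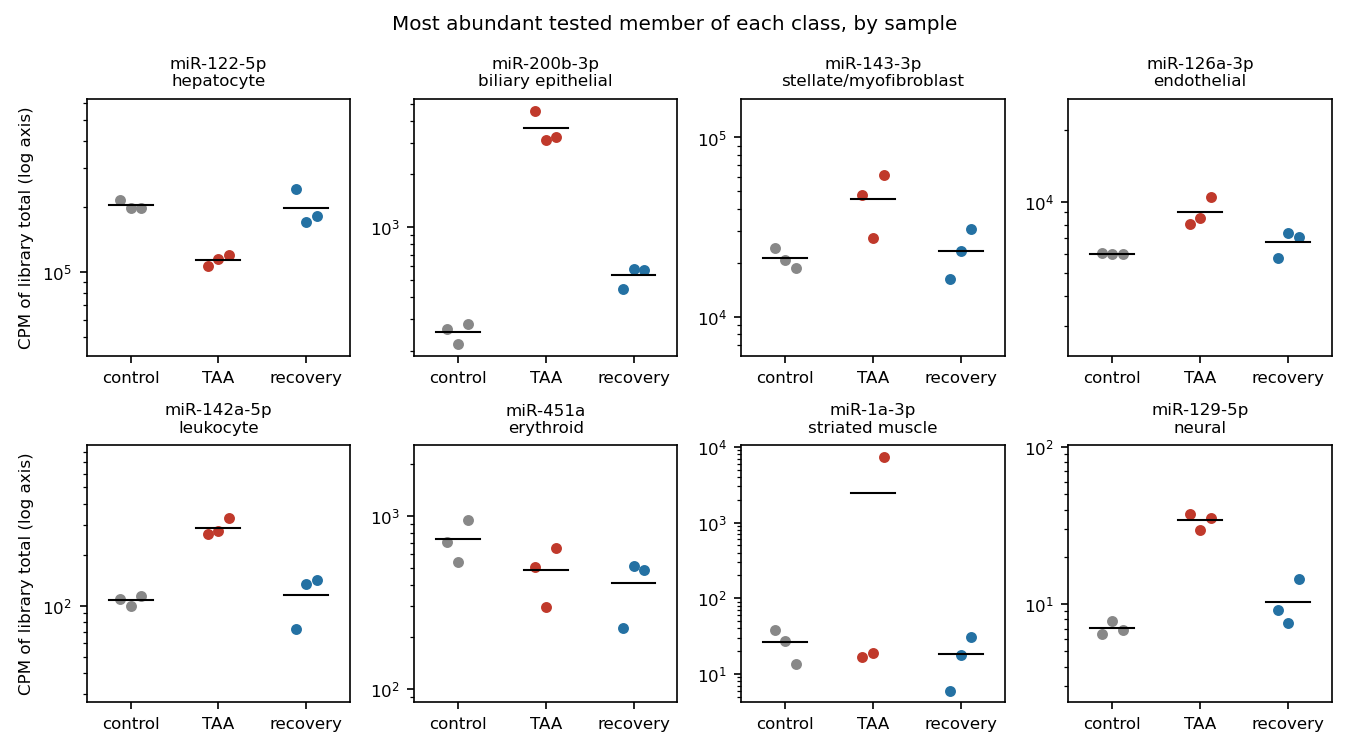
CPM of the library total (log axes) of the most abundant tested member of each of 8 classes in control, TAA and recovery libraries, with 1 point per library and a line at the mean of 3. miR-200b-3p separates the groups fully, miR-143-3p and miR-451a overlap, and miR-1a-3p is high in TAA replicate 3 alone.

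Most families with DEMs were either up-regulated on the TMM scale with small differences on the library-total scale, or down-regulated on both. The near-constant shift between the scales leads to this pattern, so it is no separate result about the families. The miR-30 family, which restrains connective tissue growth factor, moved as 1 group. All 12 tested arms had positive log2 fold changes on the TMM scale, from 0.64 to 1.24, with no overlap between the groups, against 23.6% of all tested rows without overlap in that direction, and 4 were DEMs, against 10.2% of all tested rows up-regulated. Their median by library totals was 0.06 and none was a DEM. mmu-miR-30a-5p, the most abundant arm, had 24602, 18596 and 18135 CPM in the TAA and 20098, 29830.4 and 22439 CPM in the recovery libraries. The groups thus overlapped in CPM of the library total, though not on the TMM scale. The TMM log2 fold changes lay close to the threshold, and the number of DEMs was 9 without TAA replicate 1 and 2 without TAA replicate 3.

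The miR-29 family represses collagens and other matrix genes and is lowered in fibrotic tissue. Of its 7 tested rows 4 were up-regulated on the TMM scale, against 10.2% of all tested rows, and 2 were without TAA replicate 3, without recovery replicate 1 or without recovery replicate 2. mmu-miR-29c-3p had 10.8, 12.8 and 15.5 CPM in the TAA and 27.8, 30.0 and 23.8 CPM in the recovery libraries, beside 27.1 ± 3.01 CPM (SD, n = 3) in the control libraries. Its log2 fold change was 1.94 ± 0.22 (SE, FDR = 0.00059) on the TMM scale and 1.06 ± 0.22 (SE, FDR = 0.0046) on the library-total scale. The far more abundant mmu-miR-29a-3p, with the same seed, had 897, 959 and 1161 and 1072, 1014 and 939.6 CPM, and its log2 fold change was 0.88 on the TMM scale and 0.00 on the library-total scale. On the library-total scale the 1 up-regulated row, mmu-miR-29c-3p, was lost without TAA replicate 1 or recovery replicate 2, and the 1 down-regulated row without TAA replicate 3, recovery replicate 1 or recovery replicate 3. By abundance the family as a whole held 0.107% ± 0.0143 of the TAA libraries and 0.109% ± 0.00660 of the recovery libraries (SD, n = 3), a difference smaller than the spread of the samples.

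In the miR-101 family, which represses Ezh2 and other genes, both tested rows were up-regulated on the TMM scale, against 10.2% of all tested rows. mmu-miR-101b-3p had 5286, 5311 and 4605 CPM in the TAA and 6725, 7820.5 and 7659.7 CPM in the recovery libraries (1.41, FDR = 0.00028 on the TMM scale and 0.55, FDR = 0.0075 on the library-total scale), with no overlap. Without recovery replicate 3, 4 rows of the family were up-regulated. All 4 tested arms of miR-139 and miR-455, of which miR-139 is intronic to the phosphodiesterase gene Pde2a, were up-regulated on the TMM scale, against 10.2% of all tested rows. Like the other lists, this list was chosen with earlier results of these data known, so its count is no separate support. mmu-miR-139-5p had 371, 439 and 424 and 510.1, 569 and 535 CPM (1.26, FDR = 0.00054), and mmu-miR-455-5p had 294, 140.0 and 199.8 and 301, 475 and 297 CPM (1.62, FDR = 0.0060). By library totals 1 of the 4 was called, mmu-miR-455-3p with 36.7, 26.3 and 34.4 and 74.5, 64.0 and 62.2 CPM, and 2 were called without TAA replicate 1 but none without TAA replicate 2 or recovery replicate 1. Of the 4 arms of miR-1843, 3 were up-regulated on the TMM scale. The rarer arm mmu-miR-1843a-3p had 4.33, 8.16 and 5.35 and 14.7, 9.13 and 12.2 CPM (1.90, FDR = 0.0037), and mmu-miR-1843a-5p had 259, 278 and 238 and 313, 357 and 402 CPM (1.33, FDR = 0.00054).

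mmu-miR-592-5p was the row with the highest log2 fold change, 3.55 ± 0.31 (SE, FDR = 0.00028) on the TMM scale and 2.67 ± 0.29 (SE, FDR = 0.00029) on the library-total scale. It had 6.71, 5.62 and 6.87 CPM in the TAA and 46.3, 49.3 and 27.0 CPM in the recovery libraries, and 25.5 ± 4.71 CPM (SD, n = 3) in the control libraries. Every recovery library was thus above every TAA library, with recovery replicate 3 within the range of the control libraries and the other 2 above it. mmu-miR-203-3p, an epithelial differentiation miRNA of the skin, had 615, 557 and 577 and 801, 947 and 917 CPM (1.47, FDR = 0.00028 on the TMM scale and 0.61, FDR = 0.0073 on the library-total scale). Among the rows with the 10 highest TMM fold changes of the up-regulated DEMs that averaged 10 CPM or more and did not overlap, mmu-miR-1948-5p had 31.7, 22.7 and 22.5 and 39.0, 47.8 and 41.5 CPM (1.597, FDR = 0.0012). mmu-miR-376b-3p, from the imprinted region of Meg3 on chromosome 12, had 3.36, 7.39 and 8.51 and 9.09, 12.4 and 15.5 CPM (1.81, FDR = 0.0060) against 0.947 ± 0.716 CPM in the control group. It was thus high in both TAA-exposed groups. In the miR-26 family 1 of 4 tested rows and in the miR-378 family 1 of 4 tested rows was up-regulated on the TMM scale, against 10.2% of all tested rows, with medians of 0.87 and 0.94. These counts were 2 for miR-26 without TAA replicate 1 or recovery replicate 3, and for miR-378 2 without TAA replicate 2 or 3, 0 without recovery replicate 1 and 3 without recovery replicate 2.

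The lists with the lowest medians on the TMM scale, apart from muscle, were the imprinted miRNAs outside the Meg3 region (-3.20), miR-582 (-2.92) and miR-34 (-2.28). Both arms of miR-582, which lies in an intron of Pde4d, were down-regulated on both scales. mmu-miR-582-3p had 22.6, 38.1 and 17.7 CPM in the TAA and 1.15, 2.12 and 2.17 CPM in the recovery libraries, still above the control value of 0.249 ± 0.0826 CPM (SD, n = 3). The miR-34 family is induced by p53. mmu-miR-34a-5p had 159.7, 176 and 154 and 14.0027, 14.8 and 18.1 CPM (-2.52, FDR = 0.00013) and mmu-miR-34c-5p, from a separate locus, 75.2, 62.8 and 97.4 and 6.96, 10.4 and 9.23 CPM (-2.28, FDR = 0.00043). In both, every recovery library was far below every TAA library, and the control values were 11.8 ± 2.97 and 5.66 ± 0.853 CPM. Among the imprinted rows mmu-miR-296-3p had 5.04, 4.19 and 4.47 and 0.246, 0 and 0.481 CPM and its neighbour mmu-miR-298-5p 1.33, 4.19 and 4.58 and 0.164, 0.244 and 0.160 CPM. Both were at a few counts or none in the recovery libraries, so their fitted fold changes depend on the prior count of the fit. The list median of -3.20 is the value of 1 of these rows, so it depends on the prior count as well. The most abundant row of the list, mmu-miR-335-3p from the Mest locus, had 47.0, 58.0 and 33.1 and 10.97, 13.8 and 14.8 CPM (-0.94, FDR = 0.019 on the TMM scale and -1.80, FDR = 0.0010 on the library-total scale).

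Of all tested rows 14.5% were down-regulated on the TMM scale and 46.1% on the library-total scale, and the small counts of the following families stand beside these shares. In the miR-132 and miR-212 cluster, which responds to CREB, all 4 tested arms were down-regulated on the library-total scale and 2 on the TMM scale, mmu-miR-132-3p and mmu-miR-212-5p (-1.64, FDR = 0.0065 and -1.34, FDR = 0.0082). In the miR-181 family all 7 tested rows were down-regulated on the library-total scale and 2 on the TMM scale, mmu-miR-181c-3p (-1.79, FDR = 0.0019) and mmu-miR-181d-5p (-1.15, FDR = 0.0087). Without TAA replicate 1, 1 was. The most abundant row, mmu-miR-181a-5p, had 547, 494 and 728 CPM and 221, 256 and 214.6 CPM (-0.48, FDR = 0.065). In the miR-130 and miR-301 family 2 of 4 tested rows were down-regulated on the TMM scale, the rare arms mmu-miR-130b-5p (-2.17, FDR = 0.0049) and mmu-miR-301a-5p (-2.04, FDR = 0.017), and 1 without recovery replicate 1. The abundant mmu-miR-130a-3p had 27.6, 40.8 and 34.0 and 16.4, 15.5 and 17.7 CPM (-0.17, FDR = 0.54).

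The clusters of miR-106b-25 and miR-17-92, both associated with proliferation, had medians of -0.71 and -0.69 on the TMM scale and -1.57 and -1.55 on the library-total scale. In the miR-106b-25 cluster, intronic to the replication licensing gene Mcm7, none of 6 tested rows was a DEM on the TMM scale by edgeR or DESeq2, although 3 were lower at an unadjusted p below 0.05 by edgeR, and all 6 were down-regulated on the library-total scale, against 46.1% of all tested rows. mmu-miR-93-5p had 888, 799 and 749 CPM in the TAA and 331, 404 and 370.3 CPM in the recovery libraries (-0.28, FDR = 0.17 on the TMM scale and -1.14, FDR = 0.00074 on the library-total scale). In the miR-17-92 cluster and its paralogs 2 of 9 tested rows were down-regulated on the TMM scale and 6 on the library-total scale, against 14.5% and 46.1% of all tested rows. mmu-miR-17-5p had 181.977, 88.1 and 64.3 and 24.7, 30.2 and 26.2 CPM and mmu-miR-18a-5p 22.9, 7.39 and 6.98 and 0.901, 1.55 and 1.12 CPM. TAA replicate 1 was the highest library for both, and the call of mmu-miR-17-5p was lost without it or without any recovery library, which left 1 call each time. mmu-miR-92a-3p, which can come from the same primary transcript or from a cluster on chromosome X, had 389, 404 and 285 and 234, 203 and 205 CPM (0.12, FDR = 0.66).

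Several abundant families had no DEM on the TMM scale, by edgeR or DESeq2. The let-7 family, which targets growth regulators such as Lin28 and Hmga2, had 16 tested rows with a median of 0.28 on the TMM scale and -0.59 on the library-total scale, with 0 and 3 down-regulated. At an unadjusted p below 0.05 by edgeR 5 rows were higher and 2 lower on the TMM scale. One row was up-regulated on the TMM scale without TAA replicate 2 or without recovery replicate 2. mmu-let-7f-5p had 28358, 25598 and 25567 CPM in the TAA and 18122, 22099 and 21442 CPM in the recovery libraries. miR-23, miR-24 and miR-27 (9 tested rows), miR-221 and miR-222 (4), miR-191 and miR-425 (4), miR-322, miR-503 and miR-351 (9) and the 2 Drosha-independent rows had no DEM on the TMM scale either, by edgeR or DESeq2, and had medians between -0.51 and -0.21 on the TMM scale. On the library-total scale 7 of 9, 3 of 4, 2 of 4, 6 of 9 and 2 of 2 of them were down-regulated, against 46.1% of all tested rows. At an unadjusted p below 0.05 by edgeR 5, 1, 2, 0 and 0 of them were lower on the TMM scale. mmu-miR-21a-5p, which rises in injured and fibrotic organs, had 350086, 378927 and 322706 CPM in the TAA and 181958, 225592 and 222732 CPM in the recovery libraries. It was lower in every recovery library by CPM, as were 63.6% of all tested rows. Its log2 fold changes were 0.12 ± 0.10 (SE, FDR = 0.37) on the TMM scale and -0.74 ± 0.12 (SE, FDR = 0.0016) on the library-total scale. It was no DEM on either scale. The miR-10 and miR-196 list (3 tested rows) had no DEM by edgeR on either scale, except 1 up-regulated row without TAA replicate 3, and DESeq2 called 1 down-regulated. Its abundant row mmu-miR-10a-5p had 10329, 7719.6 and 9164 and 5903, 7210.2 and 7105 CPM. In the miR-33, miR-103 and miR-107 list (3) no row was called on the TMM scale by edgeR or DESeq2, except 1 down-regulated by edgeR without recovery replicate 2, and 1 was down-regulated on the library-total scale, though not without recovery replicate 1 or 3. mmu-miR-103-3p had 1087, 1169 and 914 and 725, 711 and 667 CPM.

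The imprinted region from Meg3 to Mirg on chromosome 12 held 46 tested rows of 86 listed. On the TMM scale 1 was up-regulated and 4 were down-regulated, with a median of -0.07 beside -0.12 for all tested rows. By library totals 17 were down-regulated. Over all tested rows the shares were 10.2% up-regulated and 14.5% down-regulated on the TMM scale and 46.1% down-regulated by library totals. With all 6 libraries the called shares of the region were below all 3. The region summed to 1443 to 4224 CPM in the TAA, 1215 to 2216 CPM in the recovery and 119 to 234 CPM in the control libraries. Every recovery library was thus above every control library, and TAA replicate 1 was the lowest TAA library. mmu-miR-411-5p, its most abundant row, had 382, 1095 and 1065 and 357, 524 and 665 CPM. Without TAA replicate 1, 53 rows of the region were tested, of which 12 were down-regulated on the TMM scale and 37 on the library-total scale. Of all rows tested in that fit 50.3% were down-regulated on the library-total scale, so the share of the region was then above that of all rows. Without TAA replicate 2, TAA replicate 3, recovery replicate 1, recovery replicate 2 or recovery replicate 3, the region had 47, 46, 53, 53 and 53 tested rows. The number down-regulated on the TMM scale was then 2, 2, 0, 0 and 2, and on the library-total scale the first 4 of these left 7, 10, 8 and 8. mmu-miR-370-3p had the lowest value, with 8.66, 43.0 and 28.04 and 2.70, 3.18 and 3.77 CPM (-2.17, FDR = 0.014). In the Sfmbt2 intronic cluster 2 of 10 tested rows, a pair with identical counts, were down-regulated on the TMM scale, against the same 14.5%. That number was 4 without TAA replicate 2 and 1 without recovery replicate 2. On the TMM scale 6 of the 10 were lower without overlap, against 29.8% of all tested rows. By library totals 9 were down-regulated, against 46.1%. The most abundant row there, mmu-miR-467a-5p, had 42.1, 39.6 and 35.8 and 4.83, 13.0 and 18.2 CPM (-0.87, FDR = 0.11). It had the same counts as mmu-miR-467b-5p, so these rows are 1 measurement as well. Both pairs with identical counts are among the 9 rows.

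**Figure D4:**
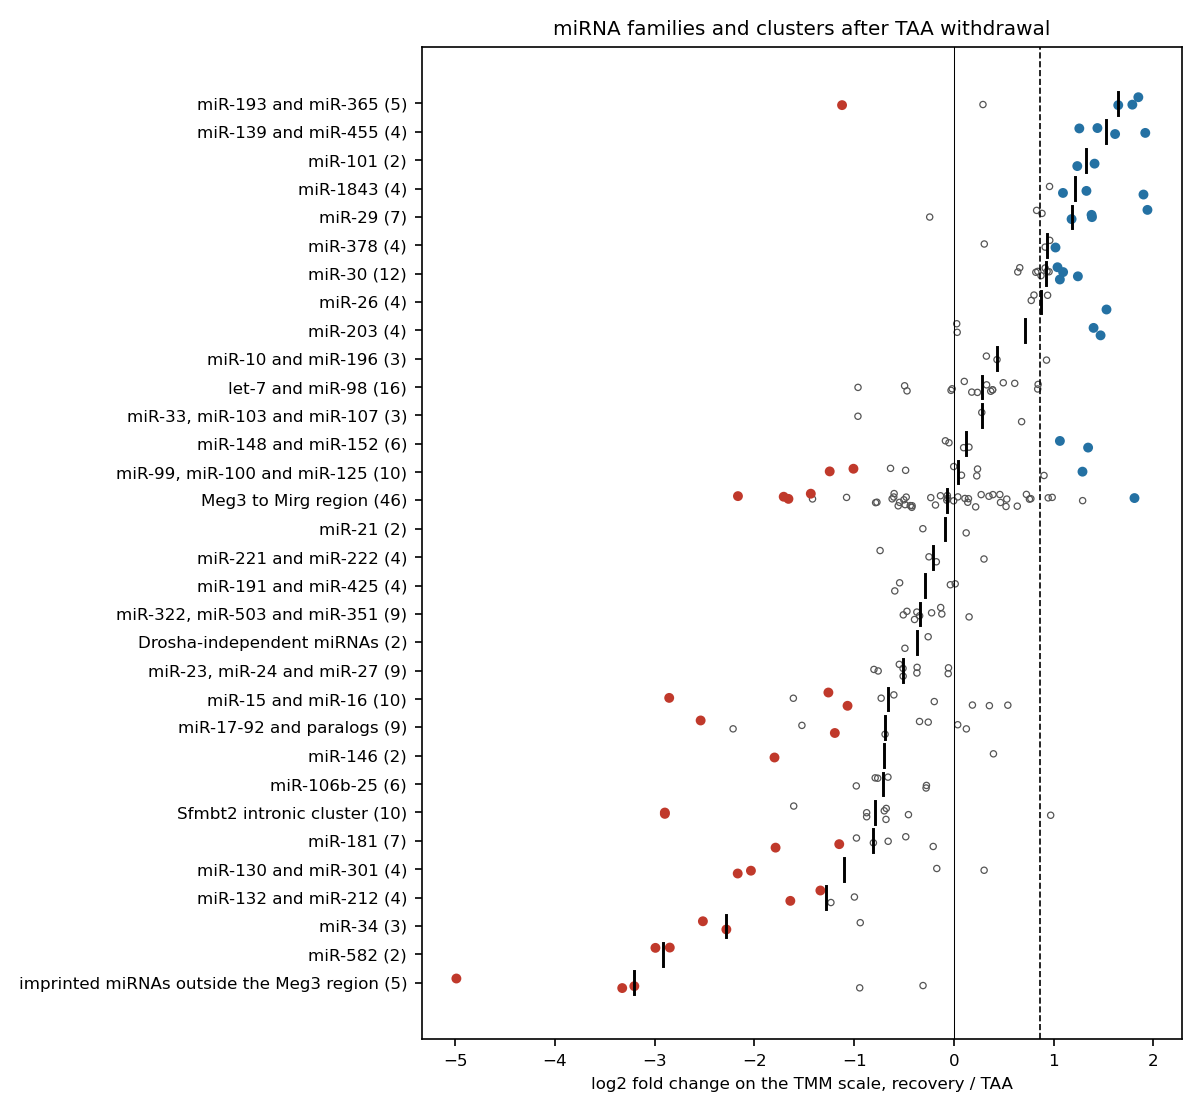
Log2 fold change of recovery over TAA on the TMM scale (x axis) for each tested row of the families and clusters with at least 2 tested rows, ordered by median (black bars), with numbers of tested rows in parentheses. Filled blue points are up-regulated DEMs, filled red points are down-regulated DEMs, open points are neither, and the dashed line marks 0.86, which corresponds to no change on the library-total scale. miR-30 and miR-26 lie at that line, and miR-582 and miR-34 lie far below 0.

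Grouping by seed gave 12 seeds with at least 3 tested rows among the 372 tested rows that matched a RefSeq mature sequence. The seed AAUACUG of miR-200b, miR-200c and miR-429 was the only one of the 12 with all its rows called in 1 direction on the TMM scale. In 7 groups 1 row was called, and in 4 groups none by edgeR. Ratios of 2 miRNAs within a library do not depend on the scale and are given as a description, since the pairs were chosen with their values known. The log2 ratio of mmu-let-7i-5p to mmu-let-7g-5p was -0.11, -0.56 and -0.34 in the 3 TAA libraries and -2.28, -2.11 and -2.01 in the 3 recovery libraries, and -2.36 ± 0.03 (SD, n = 3) in the control group. mmu-let-7i-5p had 9698, 7657 and 8327 and 2086, 2549 and 2635 CPM, and mmu-let-7g-5p had 10431, 11296 and 10531 and 10104, 11012 and 10602 CPM. let-7i was thus close to let-7g in the TAA libraries and well below it in the recovery libraries. The 2 rows of miR-146, a feedback inhibitor of NF-kB signalling, differed as well. mmu-miR-146b-5p was down-regulated on both scales, from 973, 685 and 965 to 111, 152 and 153 CPM (-1.80, FDR = 0.00054), whereas mmu-miR-146a-5p had 739, 774 and 594 and 337, 465 and 742 CPM (0.40, FDR = 0.26). Recovery replicate 3 was within the TAA range of mmu-miR-146a-5p.

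The log2 ratio of mmu-miR-193a-3p to mmu-miR-193b-3p turned from -1.75, -1.48 and -2.05 in the TAA libraries to 1.502, 1.56 and 0.20 in the recovery libraries. On the TMM scale mmu-miR-193a-3p was up-regulated (1.65, FDR = 0.0082) and mmu-miR-193b-3p down-regulated (-1.12, FDR = 0.030). The latter call was lost without any 1 of the TAA libraries, recovery replicate 1 or recovery replicate 2, and the levels were at most 7.39 CPM. Each of the 2 hairpins lies beside a hairpin of miR-365, on chromosomes 11 and 16. mmu-miR-365-3p, which can come from either, had 28.7, 26.0 and 26.3 and 52.0, 55.7 and 45.4 CPM (1.79, FDR = 0.00044). mmu-miR-148a-3p was up-regulated on the TMM scale, while mmu-miR-152-3p of the same seed had 0.15 and mmu-miR-148b-3p -0.09. Of the 6 tested rows of the family 2 were up-regulated, against 10.2% of all tested rows, and 1 without TAA replicate 3. mmu-miR-15b-5p was down-regulated (-1.07, FDR = 0.0093) and mmu-miR-15a-5p was not called (0.54, FDR = 0.066). Of the 10 tested rows of miR-15 and miR-16, 3 were down-regulated on the TMM scale, against 14.5% of all tested rows, and 1 without recovery replicate 2. In the miR-99, miR-100 and miR-125 families 1 of 10 tested rows was up-regulated and 2 were down-regulated, near the 10.2% and 14.5% of all tested rows. No down-regulated call was left without TAA replicate 1 or any of the recovery libraries, 1 was without TAA replicate 2 or 3, and no up-regulated call without TAA replicate 2, recovery replicate 1 or recovery replicate 2. mmu-miR-99a-5p, the most abundant of these rows, had 4887, 4709 and 6800.3 and 5663, 5616 and 5419.7 CPM.

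**Figure D5:**
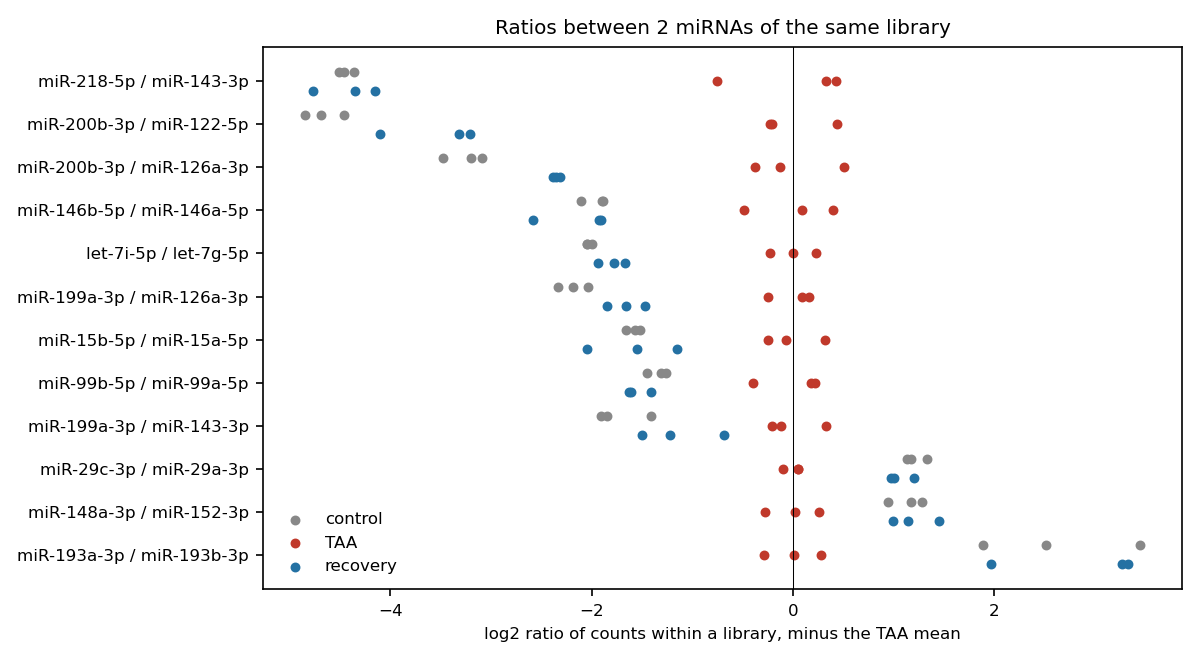
Log2 ratio of the counts of 2 miRNAs of the same library, minus the mean of the TAA group (x axis), for 12 pairs in control, TAA and recovery libraries, 1 point per library. In all 12 pairs the TAA and recovery libraries do not overlap, and the pairs were chosen with these values known.

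The fold changes of the 2 arms of a hairpin were set side by side. In 116 hairpins both arms were tested, and both were up-regulated in 9 and both down-regulated in 7 on the TMM scale. Of all tested rows, taken singly, 10.2% were up-regulated and 14.5% down-regulated on that scale. The hairpins are not all separate measurements. The 2 arms of miR-5615, which is among the 9, were near-identical in counts. Rows of miR-122b, miR-126b, miR-203b and miR-3071 were near-identical to rows of miR-122, miR-126a, miR-203 and miR-136. In 19 hairpins 1 arm was called, in 81 neither, and in none were the arms called in opposite directions. The median difference between the arms was 0.37 on the log2 scale, and it was over 1 in 9 hairpins. Among those 9 were miR-122b, miR-203, miR-203b and miR-3071. The same difference was not computed for unrelated rows, so whether arms were more alike than other rows was not tested. The difference was 1.44 for miR-203, where mmu-miR-203-3p was up-regulated and mmu-miR-203-5p, at 28.5, 21.8 and 22.4 and 11.96, 16.4 and 12.7 CPM, was not (0.03, FDR = 0.92). The latter row is near-identical in counts to mmu-miR-203b-3p, so the 2 rows cannot be told apart. DEMs of neighbouring hairpins, at most 10000 bases apart, likewise had the same direction, with 1 exception among the clusters of at least 2 called rows outside the Meg3 region, the pair of miR-193b and miR-365-1. There mmu-miR-365-3p may come from the other locus. Of 3 called rows in the cluster of miR-379 on chromosome 12, 1 was up-regulated and 2 were down-regulated.

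Rows outside the lists accounted for 25 of the 109 DEMs on the TMM scale. Among the DEMs that averaged 10 CPM or more and did not overlap, the only row of the 10 lowest fold changes that belonged to no list was mmu-miR-12182-3p, with 35.2, 53.5 and 30.9 CPM in the TAA and 5.24, 6.76 and 5.38 CPM in the recovery libraries (-1.91, FDR = 0.0017). The rarer mmu-miR-190b-5p had 12.9, 15.3 and 18.9 and 0.819, 1.79 and 0.722 CPM (-2.94, FDR = 0.00094), and mmu-miR-205-5p, a miRNA of stratified epithelia, had 9.81, 6.50 and 8.18 and 1.47, 0.978 and 1.44 CPM (-1.78, FDR = 0.0039). For both the groups did not overlap, and the control values were 1.09 ± 0.0847 and 4.80 ± 1.92 CPM (SD, n = 3). Of the 700 rows that were not tested, 41 had no count in the 6 libraries. A further 20 had counts in all 3 TAA libraries and none in a recovery library, and 1 had the reverse.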

How the data were processed

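Livers of 3 control, 3 TAA and 3 recovery mice were profiled by small RNA sequencing. The authors filtered the reads by quality and used Bowtie 1.3.0 to place them on the mm10 genome and match them to miRBase. The deposited table holds the authors' read counts and, beside them, values the authors called TPM, which per the table are the counts per 1000000 counts (CPM) of the library total, within 4.96e-05 CPM. The table has 1140 rows, 34 of them predicted miRNAs. How reads matching several miRNAs were counted is not given in the sources used here, and 17 pairs of rows had near-identical counts, within 2% of each other.

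Rows were kept by filterByExpr with a minimum count of 10, and the 6 TAA and recovery libraries were fitted with edgeR 4.0.16 (R 4.3.3) and the quasi-likelihood test on the counts, with TMM factors and, separately, with library totals. The FDR is Benjamini-Hochberg over all tested rows, and the SE is the absolute log2 fold change divided by the square root of F. DESeq2 1.42.0, other filters and scalings, merged rows, a replicate block and the omission of each library were tried as alternatives. The code was tested on simulated data. The depth of 9071847 to 12462838 counts a library makes 1 count about 0.1 CPM. Lists and members were chosen with earlier results of these data known. By rule, the text draws the rows it names from class members, the most abundant row of each list, the 10 highest and lowest fold changes among DEMs that averaged 10 CPM or more without overlap, rows up-regulated on both scales, the 10 rows with the most counts, and seed or hairpin partners of these. Not every row under the rule is described. The arms of miR-144 and miR-486a and the miR-219 rows, for example, are left out. Paralogs and other rows outside this rule (let-7g and let-7i, 15a and 15b, 17, 18a, 130b, 132, 146b, 148b, 152, 181c, 181d, 190b, 193a-3p, 193b, 203-5p, 205, 212, 296, 298 and 301a) were named after their values were seen. Sequences and positions are from RefSeq (GRCm38.p6), and 935 of 1140 rows matched a mature sequence. Host genes are from GENCODE M21.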

Additional observations from a re-analysis of the deposited data

How the results depend on the processing

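Each library group held 3 samples, and the 109 DEMs of the TMM scale (45 up-regulated, 64 down-regulated) became 118 with DESeq2, of which 103 were shared, 115 with all 9 libraries in 1 fit, 139 with no filter on low counts and 93 to 132 (45 to 57 up-regulated, 48 to 75 down-regulated) when 1 library was left out. Scaling moved them most, to 207 (4 and 203) by library totals and to 19 up-regulated and 116 down-regulated by totals without the 5 most abundant rows. Requiring a mean of at least 10 CPM left 61 (22 and 39) of fewer rows tested, and the FDR alone gave 172 (81 up-regulated). On the library-total scale the 207 DEMs became 109 (46.1% against 42.5% of tested rows down-regulated) at a mean of at least 10 CPM, and 24.8% of rows were down-regulated with no filter, where rows near 0 enter the denominator. Up-regulated rows numbered 7 with near-identical rows merged, 14 without both miR-122 rows (30.4% of rows down-regulated), 18 by the FDR alone and 2 to 4 when 1 library was left out.

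Class medians by library totals were 0.28 (hepatocyte), -2.71 (biliary epithelial), -2.12 (stellate cell and myofibroblast), -0.14 (endothelial), -1.59 (leukocyte), -0.76 (erythroid), -1.01 (pancreas), -1.36 (neural). By totals without the 5 most abundant rows they were 0.69 (hepatocyte), -2.30 (biliary epithelial), -1.68 (stellate cell and myofibroblast), 0.27 (endothelial), -1.19 (leukocyte), -0.59 (pancreas). At a mean of at least 10 CPM they were -1.47 (stellate), 0.54 (endothelial) and -1.04 (neural). Without the Meg3 region they were 0.81 (endothelial) and -0.061 (pancreas), and with DESeq2 0.79 and -0.079. Over the members tested with all 6 libraries, leaving out 1 library gave 1.14 to 1.297 (hepatocyte), -1.99 to -1.51 (biliary epithelial), -1.37 to -1.09 (stellate cell and myofibroblast), 0.70 to 0.82 (endothelial), -1.03 to -0.55 (leukocyte), -0.045 to 0.63 (erythroid), -6.31 to 0.79 (striated muscle), -0.13 to -0.076 (pancreas), -0.60 to -0.27 (neural).

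Signs turned under library totals, where 1 of the values had an FDR below 0.05, for mmu-let-7f-5p (-0.37), mmu-miR-103-3p (-0.59), mmu-miR-10a-5p (-0.43), mmu-miR-122b-5p (-0.26), mmu-miR-126a-3p (-0.42), mmu-miR-126a-5p (-0.14), mmu-miR-126b-3p (-0.14), mmu-miR-145a-3p (-0.70), mmu-miR-145a-5p (-0.72), mmu-miR-16-5p (-0.68), mmu-miR-21a-5p (-0.74), mmu-miR-26a-5p (-0.093), mmu-miR-29b-3p (-0.030), mmu-miR-802-5p (-0.72), mmu-miR-92a-3p (-0.75), and under totals without the 5 most abundant rows for mmu-miR-10a-5p (-0.0013). The cause was not tested beyond the near-constant shift between the scales. The labels number the replicates 1 to 3 in each group, but same-numbered libraries had correlations of their deviations of 0.186, -0.231 and 0.221, and not every library correlated best with its own number, so the numbers were not taken as pairs. With the number as a replicate block 106 DEMs were found (44 up-regulated, 62 down-regulated), 103 of them shared, and the striated muscle median was -1.88. Rows with few counts in the recovery libraries, such as mmu-miR-296-3p, were limited by depth.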
